A study of Mus musculus with 12 samples.

Results

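The B cell receptor signalling genes described here are 42 named genes that carry the signal of the antigen receptor into the B cell: receptor chains, kinases, adaptors, exchange factors, phosphatases and the branch that runs through calcium to NFAT. A gene counted as measured when at least 1 probe set of the array carried its symbol and no other. That held for 41 of the 42, with 99 of the 45037 probe sets, and the tests below were run over all 18193 genes with such a probe set. Lyn was not analysed here.

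The study set sorted B cells of C57BL/6 females side by side on 12 Affymetrix mouse arrays, 3 for each of 4 groups. Age-associated B cells (old ABC) and follicular B cells (old FO) were taken from spleens of animals older than 15 months. Peritoneal B1 cells of the same age are called old B1 here, and young B1 cells, also peritoneal, came from animals of 8 weeks. Cell type and organ thus differ together between the B1 groups and the splenic groups, and cannot be told apart. The titles write B1a where the cell type field has B1, and neither gives the surface markers of the sort. No group carries a transgene, a deletion or a treatment per the labels, and the labels do not tell whether a replicate is a single animal or a pool. The p-values therefore speak only of the spread among these particular samples, which may be technical.

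The antigen receptor of a B cell is a surface immunoglobulin that pairs with CD79A and CD79B, and these chains carry the motifs that Src-family kinases phosphorylate. SYK then docks on them and, with BTK and the scaffold BLNK, turns on phospholipase C gamma 2, from which calcium and diacylglycerol lead to NFAT, to Ras through RasGRP proteins, and to NF-kappaB through protein kinase C, BCL10 and MALT1. Phosphatases, DOK adaptors and CBL ubiquitin ligases hold the signal in check. B1 cells are known for a muted calcium response to their receptor, and age-associated B cells for responding to Toll-like receptor ligands more readily than to the antigen receptor.

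A few of the genes carry the outline of the result, and the start regions of their promoters are shown for that reason: Cd79a, whose RNA was not called in any comparison, Rasgrp3, whose RNA was low in B1 cells, and Ptpn22, whose RNA was low in FO cells. Each line gives the 250 bases before an annotated RNA start on the strand of the gene, from RefSeq on GRCm38.p6. Capitals mark 2 short motifs, an E-box (CAGGTG) and the core of an ETS site (AGGAAGT), each looked for on both strands.
Cd79a, chr7:24897247-24897496, plus strand: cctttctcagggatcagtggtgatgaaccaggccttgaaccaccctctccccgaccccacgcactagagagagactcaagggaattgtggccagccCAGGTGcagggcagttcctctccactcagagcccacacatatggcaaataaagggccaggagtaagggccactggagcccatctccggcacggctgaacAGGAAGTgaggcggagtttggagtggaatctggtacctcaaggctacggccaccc
Rasgrp3, first start, chr17:75435655-75435904, plus strand: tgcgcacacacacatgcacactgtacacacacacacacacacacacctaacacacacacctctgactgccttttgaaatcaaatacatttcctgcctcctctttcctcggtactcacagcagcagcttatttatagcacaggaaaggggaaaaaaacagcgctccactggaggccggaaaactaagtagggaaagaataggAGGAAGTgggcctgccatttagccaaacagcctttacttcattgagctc
Rasgrp3, second start, chr17:75465288-75465537, plus strand: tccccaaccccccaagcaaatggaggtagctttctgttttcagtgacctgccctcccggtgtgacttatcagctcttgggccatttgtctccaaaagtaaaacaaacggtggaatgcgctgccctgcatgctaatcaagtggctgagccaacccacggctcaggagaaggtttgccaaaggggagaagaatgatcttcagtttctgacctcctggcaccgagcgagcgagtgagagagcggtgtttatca
Ptpn22, first start, chr3:103859545-103859794, plus strand: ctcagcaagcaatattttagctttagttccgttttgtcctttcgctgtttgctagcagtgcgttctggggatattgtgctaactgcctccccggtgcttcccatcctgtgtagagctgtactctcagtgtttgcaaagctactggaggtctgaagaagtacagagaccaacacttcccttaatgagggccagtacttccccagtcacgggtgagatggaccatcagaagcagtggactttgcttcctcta
Ptpn22, second start, chr3:103860027-103860276, plus strand: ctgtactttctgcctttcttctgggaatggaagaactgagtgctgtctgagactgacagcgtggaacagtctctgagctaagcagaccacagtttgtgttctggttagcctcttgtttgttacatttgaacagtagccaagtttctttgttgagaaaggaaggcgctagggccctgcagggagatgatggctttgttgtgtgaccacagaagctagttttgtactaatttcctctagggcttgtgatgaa
The Cd79a window held 1 match to each of the 2 motifs, the first Rasgrp3 window held 1 ETS core, and neither motif was in the letters of the other windows printed here. Of the 42 members, 33 had a window in the table, 47 windows in all, some of which overlap. The ETS core was in 16 of the 47 windows (34.0%), which belong to 14 members, and in 7.69% of all 32841 windows of the same length. The E-box was in 12 of them (25.5%, 11 members) against 17.2% of all windows, the EBF core CCCNNGGG in 9 (19.1%, 7 members) against 11.8%, and the octamer ATGCAAAT in 2 (4.26%) against 1.60%. The ETS core was added to the search after the data had been seen. These matches describe letters and not bound sites.

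Levels below are the log2 of the deposited intensity of 1 probe set per gene, the one with the highest mean over all arrays. They can be compared between groups for a gene and not between genes. A difference is given as a log2 value ± its standard error with n = 3 arrays per group, and a gene is called where the limma p, adjusted by Benjamini-Hochberg over all 18193 genes, lies under 0.05. In sorted bulk samples fewer cells of a type and less RNA per cell cannot be told apart.

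The spread of the members over the 4 groups was close to that of all genes, with a minority of members that differed by a lot. For each member the highest group mean lay above the lowest by a median of 0.41 (from 0.08 to 3.49), against a median of 0.39 over all genes. In 28 of 41 members (68.3%) this span was under 0.5, against 60.8% of all genes, and in 8 (19.5%) it was over 1, against 17.3%. No member fell under the array median on any of the 12 arrays, so all 41 passed that limit. The plot of all members by array shows the few lines that stand out: Fyn, Vav3, Rasgrp3, Lat2, Ptprj, Nfatc1, Sos1 and Ptpn22.

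**Figure D1:**
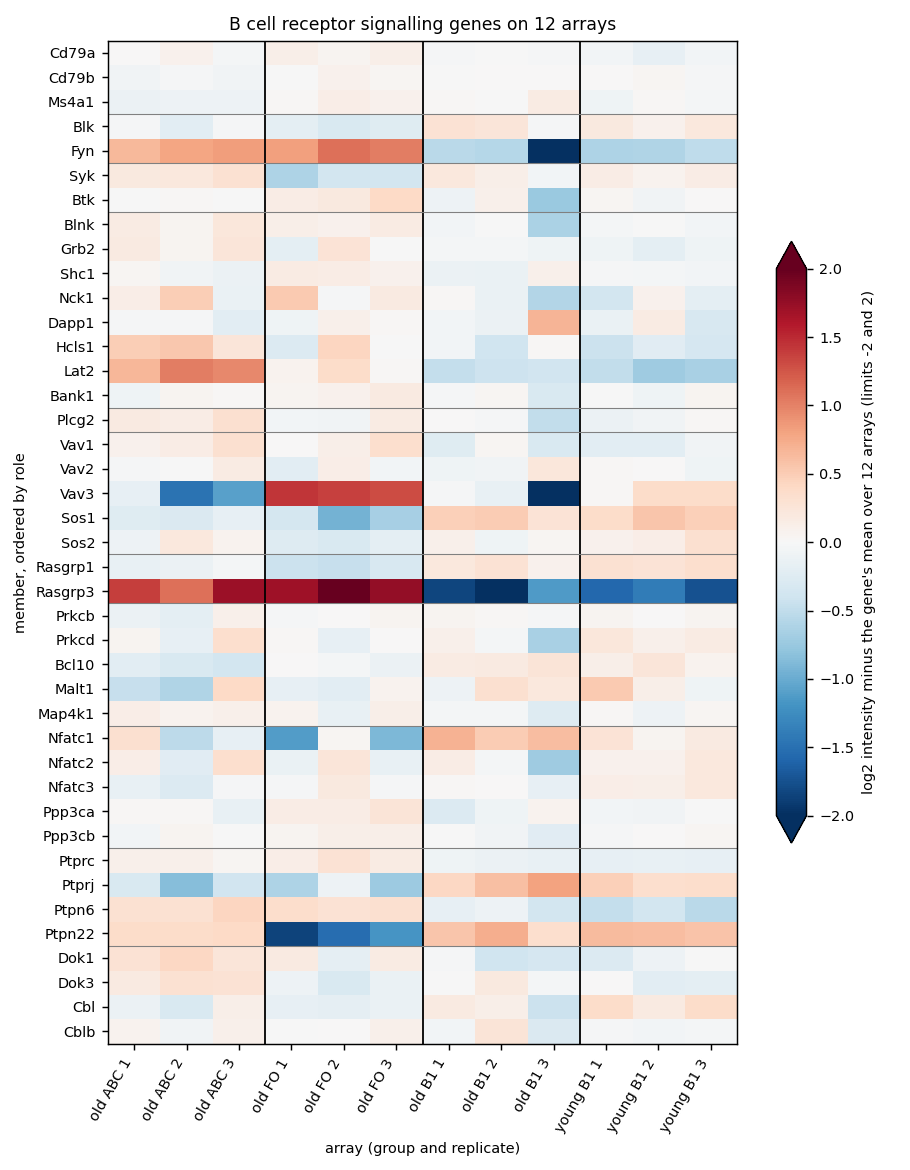
Log2 intensity of the 41 measured members (lines, ordered by role) on the 12 arrays (columns, by group and replicate), each shown as its difference from the mean of that gene over all arrays. Red is above and blue below that mean, with the colour held at -2 and 2. Most lines are pale, while Rasgrp3 and Fyn are red in ABC and FO and blue in both B1 groups, and Ptpn22 is blue in FO alone.

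Between old ABC and old FO, 5 of 41 members were called (12.2%), against 9.96% of all genes. Of these 4 were higher in ABC (7.12% of all genes were) and 1 was lower (2.84% of all genes). Between old ABC and old B1, 8 members were called (19.5%, against 12.8% of all genes), 5 higher in ABC (7.40% of all genes) and 3 lower (5.43%). Between old B1 and old FO, 13 members were called (31.7%, against 16.4% of all genes), 7 higher in B1 (8.40% of all genes) and 6 lower (8.02%). These comparisons share arrays, and the members were chosen with earlier results of these data known. A fit of the 6 compared arrays alone called 4, 4 and 5 members, and 10.8%, 5.84% and 8.00% of all genes. Of the 13 calls between B1 and FO it ended those of Blk, Fyn, Syk, Lat2, Vav3, Nfatc1, Ptprc and Ptpn6, with adjusted p from 0.0535 to 0.177, and of the 8 between ABC and B1 those of Fyn, Bcl10, Ptpn6 and Dok1, with adjusted p from 0.054 to 0.0952.

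Shares were also taken among genes ranked by the mean of their probe set over all 12 arrays, a split chosen after the data had been seen. Of the 41 members, 40 had a mean among the brightest 25% of all probe sets and 30 among the brightest 10%. Within the brightest 25%, 4 of 40 members were called between ABC and FO, against 11.7% of the 6865 genes there, 8 (20.0%) between ABC and B1, against 15.9%, and 12 (30.0%) between B1 and FO, against 22.3%. Within the brightest 10%, the member calls were 4 of 30 (13.3%), 5 (16.7%) and 10 (33.3%), against 10.1%, 13.6% and 19.4% of 3002 genes. In these cuts the members' share was near that of all genes there between ABC and FO and above it between B1 and FO. Another fit kept the 11159 genes at or above the array median on at least 3 arrays, as all 41 members were. It called 14.6%, 24.4% and 31.7% of members between ABC and FO, ABC and B1, and B1 and FO. Over its genes the shares were 16.8%, 22.3% and 29.1%, so the gap between B1 and FO was smaller there. These differences of shares were not tested. The members were chosen with earlier results of these data known, so the shares describe this list only. The median size of a member's difference was 0.15 between ABC and FO, 0.25 between ABC and B1 and 0.25 between B1 and FO, and over all genes it was 0.17, 0.22 and 0.23.

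In total 16 of 41 members (39.0%) were called in at least 1 of the comparisons, against 23.3% of all genes, and 25 in none. This share has the same limit from how the members were chosen, and it was not worked out among genes of like brightness. All 41 members passed the filter on dim genes, which 11159 of all 18193 genes passed. The plot of differences gives every member with its interval in 3 of the 4 comparisons.

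**Figure D2:**
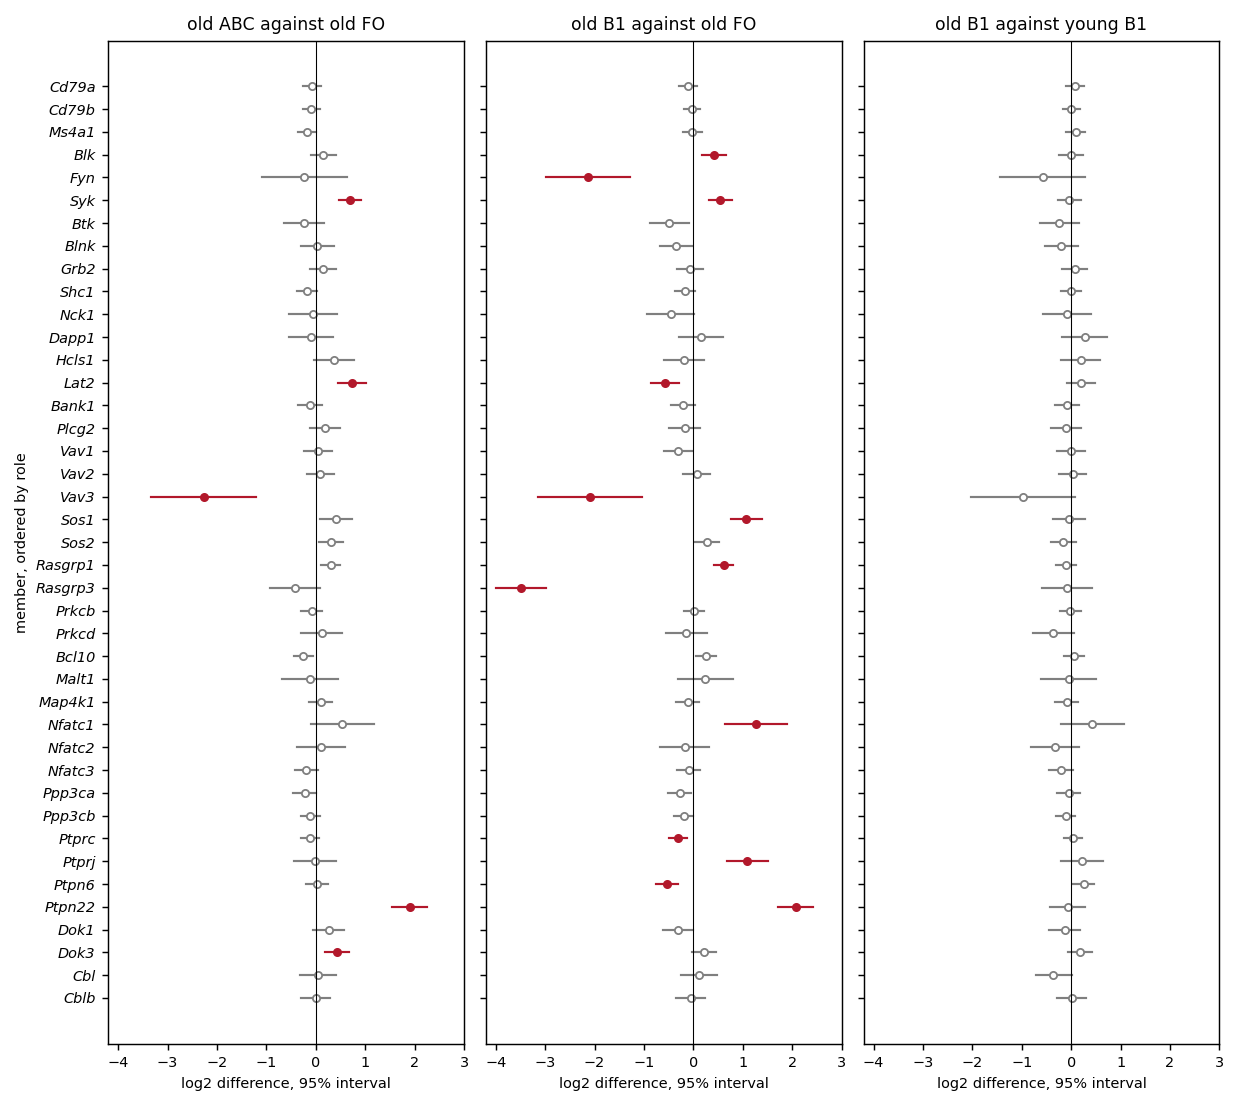
Log2 difference of each measured member (vertical axis, ordered by role) between old ABC and old FO (left), old B1 and old FO (middle) and old B1 and young B1 (right), with the 95% interval of the limma fit over n = 3 arrays per group. Filled red points have an adjusted p under 0.05: 5 on the left, 13 in the middle and 0 on the right.

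Among the receptor chains, RNA of Cd79a and Cd79b, the signalling chains that pair with immunoglobulin, and of Ms4a1, which encodes CD20, was not called in any of the 4 comparisons. Cd79a read 13.26, 13.34 and 13.21 in old ABC, 13.37, 13.31 and 13.37 in old FO, 13.22, 13.24 and 13.23 in old B1 and 13.19, 13.08 and 13.19 in young B1. Its difference between ABC and FO was -0.08, with a 95% interval from -0.26 to 0.11, and that between B1 and FO was -0.12 (from -0.30 to 0.07). The Cd79b arrays read 13.50, 13.55 and 13.50 in old ABC, 13.56, 13.65 and 13.61 in old FO, 13.56, 13.58 and 13.58 in old B1 and 13.58, 13.60 and 13.55 in young B1. Its difference between ABC and FO was -0.09 (from -0.26 to 0.08) and that between B1 and FO was -0.03 (from -0.20 to 0.14). Both chains thus varied by little over the arrays. Whether such bright probe sets respond in proportion to RNA was not tested. Ms4a1 gave -0.18 ± 0.08 between ABC and FO (limma adjusted p = 0.261), with the ABC arrays at 12.91, 12.93 and 12.93 and the FO arrays at 13.05, 13.16 and 13.12.

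Of the Src-family kinases, which phosphorylate the receptor chains first, Fyn was low in peritoneal cells and Blk was higher there than in FO cells. Fyn read 9.96, 10.10 and 10.15 in old ABC, 10.13, 10.41 and 10.34 in old FO, 8.77, 8.75 and 6.96 in old B1 and 8.69, 8.71 and 8.81 in young B1. All 6 B1 arrays lay below all 6 splenic arrays, and old B1 replicate 3 lay far below the rest. Fyn was higher in ABC than in B1 by 1.91 ± 0.39 (3.76-fold, limma adjusted p = 0.00814) and fell by 2.14 ± 0.39 in B1 relative to FO (4.40-fold, adjusted p = 0.00336). Without old B1 replicate 3 the first of these was 1.31 (adjusted p = 3.1e-05) and the second -1.54 (adjusted p = 6.3e-06). The second Fyn probe set gave 1.80 ± 0.32 and -1.87 ± 0.32.

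Fyn is also a kinase of T cells, and T cell markers varied over these arrays. The summed intensity of 9 measured T cell markers of 10 listed ran from 2851 to 3488 in old ABC, from 1199 to 2524 in old FO, from 496 to 2984 in old B1 and from 1250 to 1817 in young B1. The lowest sum belonged to old B1 replicate 3, where Cd3d, a chain of the T cell receptor complex, read 4.76 against 8.77 and 8.22 in the other old B1 arrays. Of these markers 1 was higher in ABC than in FO, 1 was higher in ABC than in B1, and 0 were called between B1 and FO. Their part in the Fyn values was not tested.

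Blk, a Src-family kinase largely restricted to B cells, read 12.97, 12.92 and 12.65 in old B1 and 12.48, 12.37 and 12.44 in old FO, with 12.65, 12.46 and 12.66 in old ABC. All old B1 arrays lay above all FO arrays, and the difference was 0.42 ± 0.11 (1.33-fold, limma adjusted p = 0.0245). It missed the threshold when either of old B1 replicates 1 and 2 or any 1 of the FO arrays was left out, with differences from 0.36 to 0.44.

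Syk, the kinase that docks on the phosphorylated chains, was lower in FO than in either of the other old groups. It read 12.95, 12.97 and 13.06 in old ABC, 12.14, 12.38 and 12.39 in old FO, 12.96, 12.87 and 12.70 in old B1 and 12.90, 12.83 and 12.90 in young B1. The FO arrays did not overlap with any other array. Syk was higher in ABC than in FO by 0.69 ± 0.10 (1.61-fold, limma adjusted p = 0.0016) and higher in B1 than in FO by 0.54 ± 0.10 (1.45-fold, adjusted p = 0.00471). A second Syk probe set of similar brightness gave 0.79 ± 0.14 and 0.59 ± 0.14, both called. Btk, the Tec-family kinase that activates phospholipase C gamma 2, was not called: its difference was -0.24 ± 0.18 between ABC and FO and -0.49 ± 0.18 between B1 and FO (adjusted p = 0.0967). It read 11.44, 11.47 and 11.44 in old ABC, 11.59, 11.64 and 11.85 in old FO, 11.35, 11.54 and 10.71 in old B1 and 11.48, 11.38 and 11.46 in young B1, with old B1 replicate 3 the lowest array.

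Of 8 scaffolds and adaptors only Lat2 was called in this set of tests. Lat2 encodes a transmembrane adaptor, also called NTAL or LAB, that recruits GRB2 in B cells, mast cells and myeloid cells. It read 11.31, 11.67 and 11.60 in old ABC, 10.71, 11.01 and 10.66 in old FO, 10.16, 10.23 and 10.26 in old B1 and 10.15, 9.93 and 9.99 in young B1. The 3 old groups did not overlap and stood in the order ABC, FO, B1. The difference was 0.73 ± 0.13 between ABC and FO (1.66-fold, limma adjusted p = 0.00454), 1.31 ± 0.13 between ABC and B1 (2.47-fold, adjusted p = 1.1e-04) and -0.57 ± 0.13 between B1 and FO (adjusted p = 0.0119). Its other 2 probe sets were dim, with means of 3.07 and 3.05, and taking the mean over all 3 gave 0.11 between ABC and FO (adjusted p = 0.832) and 0.68 between ABC and B1.

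Blnk, the scaffold that joins SYK to phospholipase C gamma 2, was flat across the spleen. It read 12.44, 12.34 and 12.51 in old ABC, 12.39, 12.37 and 12.44 in old FO, 12.22, 12.27 and 11.65 in old B1 and 12.24, 12.27 and 12.22 in young B1. Its difference was 0.03 ± 0.15 between ABC and FO and -0.35 ± 0.15 between B1 and FO, where the adjusted p of limma was 0.145. Hcls1, a cytoskeletal substrate of the receptor's kinases, had the largest difference of the uncalled adaptors, 0.56 ± 0.18 between ABC and B1 (adjusted p = 0.0698). Over the other 5 adaptors (Grb2, Shc1, Nck1, Dapp1 and Bank1) the differences between old groups ran from -0.46 to 0.41, both limits set by Nck1, and none was called through the chosen probe set. Plcg2 itself, the phospholipase, read 12.36, 12.33 and 12.50 in old ABC, 12.13, 12.12 and 12.35 in old FO, 12.20, 12.16 and 11.70 in old B1 and 12.07, 12.11 and 12.21 in young B1. It gave 0.19 ± 0.14 between ABC and FO, 0.38 ± 0.14 between ABC and B1 (adjusted p = 0.114) and -0.18 ± 0.14 between B1 and FO.

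Exchange factors, which load GTP onto Rac and Ras, held the largest differences of all. Vav3, a Rac exchange factor, read 7.89, 6.57 and 6.97 in old ABC, 9.48, 9.42 and 9.36 in old FO, 8.03, 7.90 and 6.06 in old B1 and 8.07, 8.41 and 8.42 in young B1. FO arrays were tight and above all others, while ABC and old B1 each spread over more than a log2 step. Vav3 fell by 2.27 ± 0.48 in ABC relative to FO (4.83-fold, limma adjusted p = 0.0114) and by 2.09 ± 0.48 in B1 relative to FO (4.26-fold, adjusted p = 0.0122). Without old ABC replicate 2 the first was -1.99 with an adjusted p of 0.0503. Without old B1 replicate 3 the second was -1.45 (adjusted p = 0.00616). Both other Vav3 probe sets were called in both comparisons, with -2.45 ± 0.55 and -1.90 ± 0.29 between ABC and FO. Vav1 and Vav2 were not called, with 0.04 ± 0.13 and 0.09 ± 0.12 between ABC and FO.

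Sos1, an exchange factor of Ras that GRB2 brings to the membrane, was high in both B1 groups. It read 10.83, 10.79 and 10.91 in old ABC, 10.73, 10.13 and 10.42 in old FO, 11.55, 11.59 and 11.35 in old B1 and 11.44, 11.63 and 11.56 in young B1. Every B1 array lay above every splenic array. Sos1 was higher in B1 than in FO by 1.07 ± 0.14 (2.10-fold, limma adjusted p = 5.5e-04) and fell by 0.66 ± 0.14 in ABC relative to B1 (adjusted p = 0.0125). Over the mean of its 5 probe sets the second was -0.32 (adjusted p = 0.121). Sos2 gave 0.31 ± 0.11 between ABC and FO and 0.27 ± 0.11 between B1 and FO, neither of them called (adjusted p = 0.123 and 0.128).

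RNA of Rasgrp1 and Rasgrp3, whose proteins activate Ras where diacylglycerol is made, went in opposite directions between B1 and FO cells. Rasgrp3 read 11.48, 11.19 and 11.81 in old ABC, 11.79, 12.11 and 11.85 in old FO, 8.25, 8.09 and 8.96 in old B1 and 8.52, 8.70 and 8.35 in young B1. The 6 splenic arrays and the 6 B1 arrays were more than 2 log2 steps apart. Rasgrp3 fell by 3.49 ± 0.23 in B1 relative to FO (11.2-fold, limma adjusted p = 4.2e-06) and was higher in ABC than in B1 by 3.06 ± 0.23 (8.36-fold, adjusted p = 1.7e-05). These were the largest differences of any member. Its second probe set gave -3.33 ± 0.35 and 2.73 ± 0.35. Between ABC and FO the difference was -0.42 ± 0.23, from -0.93 to 0.09, and was not called.

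Rasgrp1 moved the other way and by less. It read 12.06, 12.09 and 12.16 in old ABC, 11.78, 11.74 and 11.88 in old FO, 12.42, 12.50 and 12.29 in old B1 and 12.51, 12.48 and 12.54 in young B1. The 3 old groups did not overlap. It was higher in B1 than in FO by 0.61 ± 0.09 (1.52-fold, limma adjusted p = 0.001). ABC lay between them, 0.30 ± 0.09 above FO (adjusted p = 0.0606) and 0.30 below B1 (adjusted p = 0.0527), and neither step was called. Without old B1 replicate 3 both steps passed the threshold, at 0.30 and -0.36 (adjusted p = 0.0268 and 0.0212).

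In the arm from protein kinase C to NF-kappaB, 1 of 5 members was called once. Bcl10, the adaptor that assembles with MALT1, read 11.87, 11.77 and 11.72 in old ABC, 12.09, 12.05 and 11.96 in old FO, 12.25, 12.26 and 12.34 in old B1 and 12.20, 12.32 and 12.15 in young B1. It fell by 0.50 ± 0.09 in ABC relative to B1 (1.41-fold, limma adjusted p = 0.00437). FO lay between, without overlap with either, at differences of 0.25 that were not called. All 4 Bcl10 probe sets were called between ABC and B1, from -0.56 to -0.50. Malt1, the paracaspase, gave -0.36 ± 0.25 between ABC and B1 (adjusted p = 0.412), and over Prkcb, Prkcd and Map4k1, which encode protein kinases, no difference was called.

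Calcineurin and NFAT carry the calcium signal to the nucleus, and 1 of 5 members was called. Nfatc1 read 12.18, 11.33 and 11.69 in old ABC, 10.74, 11.89 and 10.95 in old FO, 12.55, 12.36 and 12.47 in old B1 and 12.13, 11.91 and 12.04 in young B1. Old B1 arrays lay above all FO and ABC arrays, and old FO replicate 2 stood about a log2 step above the other FO arrays. The difference between B1 and FO was 1.26 ± 0.28 (2.40-fold, limma adjusted p = 0.0113), and without old FO replicate 3 it was 1.14 with an adjusted p of 0.051. Nfatc2, Nfatc3 and the calcineurin catalytic subunits Ppp3ca and Ppp3cb were not called through their chosen probe sets, with differences from -0.28 to 0.28 between the old groups.

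All 4 phosphatases were called between old B1 and old FO, 2 in each direction, where 16.4% of all genes were called. The fit of the 6 compared arrays alone ended the 2 lower calls, those of Ptpn6 and Ptprc. Ptpn22 encodes a phosphatase that acts on Src-family and SYK-family kinases. It read 12.37, 12.37 and 12.39 in old ABC, 10.14, 10.47 and 10.81 in old FO, 12.55, 12.73 and 12.33 in old B1 and 12.63, 12.62 and 12.56 in young B1. The FO arrays lay more than a log2 step below every other array. Ptpn22 was higher in ABC than in FO by 1.90 ± 0.16 (3.74-fold, limma adjusted p = 3.8e-05) and higher in B1 than in FO by 2.07 ± 0.16 (4.19-fold, adjusted p = 1.2e-05). ABC and B1 differed by -0.16 ± 0.16, from -0.52 to 0.19. Both calls held under every one of 23 other settings, between 1.74 and 2.07 for ABC and between 1.90 and 2.24 for B1. Ptpn22 was read by 1 probe set only, so averaging over probe sets could not change its levels.

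Ptprj encodes CD148, a receptor phosphatase that removes the inhibitory phosphate of Src-family kinases. It read 10.66, 10.12 and 10.58 in old ABC, 10.35, 10.86 and 10.23 in old FO, 11.38, 11.56 and 11.77 in old B1 and 11.44, 11.30 and 11.32 in young B1. All B1 arrays lay above all splenic arrays. Ptprj was higher in B1 than in FO by 1.09 ± 0.19 (2.13-fold, limma adjusted p = 0.00288) and fell by 1.11 ± 0.19 in ABC relative to B1 (2.16-fold, adjusted p = 0.00323). All 4 Ptprj probe sets were called between B1 and FO, from 0.99 to 1.36.

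Ptpn6 encodes SHP-1, the phosphatase that inhibitory receptors recruit, and went the opposite way. It read 12.37, 12.37 and 12.50 in old ABC, 12.41, 12.35 and 12.39 in old FO, 11.90, 11.96 and 11.70 in old B1 and 11.58, 11.70 and 11.53 in young B1. Splenic and B1 arrays did not overlap. It fell by 0.53 ± 0.10 in B1 relative to FO (1.45-fold, limma adjusted p = 0.00382) and was higher in ABC than in B1 by 0.56 ± 0.10 (adjusted p = 0.00356). Ptprc, which encodes CD45, fell by 0.31 ± 0.08 in B1 relative to FO (1.24-fold, adjusted p = 0.0254). Its arrays read 12.27, 12.23 and 12.21 in old B1 and 12.48, 12.65 and 12.52 in old FO, and 7 of 23 other settings ended the call, among them leaving out old FO replicate 2 (-0.26, adjusted p = 0.0677).

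Of the inhibitory adaptors, Dok3 and Dok1 were each called once and higher in ABC. DOK3 and DOK1 recruit inhibitory enzymes below the receptor. Dok3 read 11.88 and 11.98 in old ABC replicates 1 and 3 and 12 in replicate 2, and 11.60, 11.39 and 11.57 in old FO. The groups did not overlap, with a difference of 0.43 ± 0.11 (1.35-fold, limma adjusted p = 0.0311). Leaving out any 1 of the 6 arrays compared ended the call, with adjusted p from 0.0557 to 0.101, as did leaving out young B1 replicate 3 (0.0503) or centring each array on its median (0.35, adjusted p = 0.0558). Dok1 read 9.66, 9.78 and 9.61 in old ABC and 9.34, 8.97 and 9.03 in old B1, a difference of 0.57 ± 0.14 (1.48-fold, adjusted p = 0.0214). It missed the threshold without old ABC replicate 1, old ABC replicate 2 or old B1 replicate 2, with adjusted p from 0.0582 to 0.0836. Cbl and Cblb, ubiquitin ligases that end signalling, were not called.

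**Figure D3:**
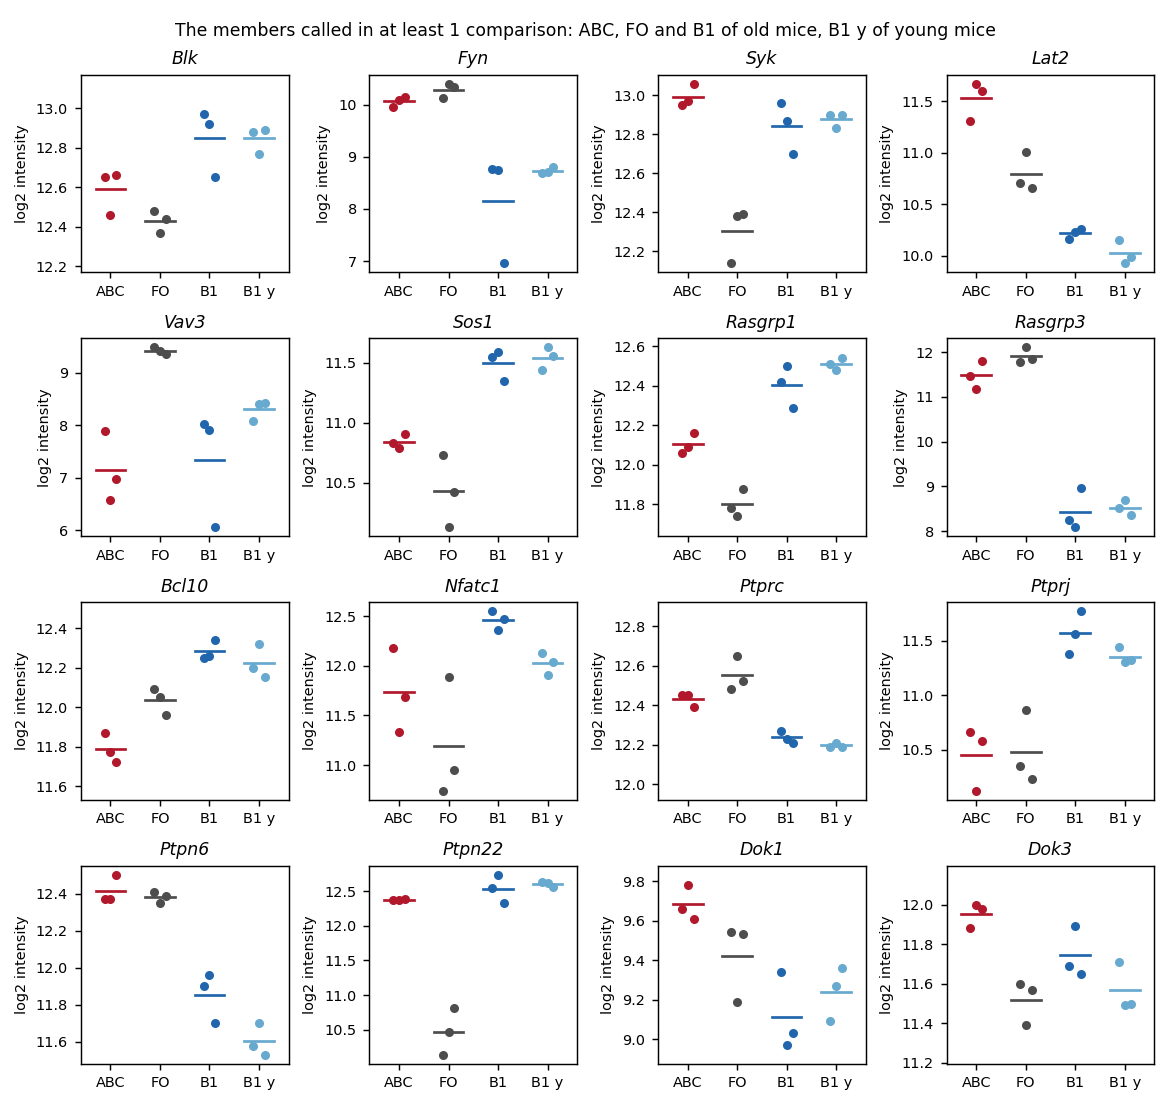
Log2 intensity (vertical axes, each with its own range) of the 16 members called in at least 1 comparison, on each of 3 arrays per group, with a bar at the group mean. Ptpn22 and Syk are low in FO alone, Rasgrp3 and Fyn are low in both B1 groups, Sos1 and Ptprj are high in both, and old B1 replicate 3 is the low point of Fyn and Vav3.

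Between old and young B1 cells 0 of 41 members were called by limma, against 0.291% of all genes, and 1 member (2.44%) had an unadjusted p under 0.05, against 7.57% of all genes. That member was Ptpn6, 0.25 ± 0.10 higher in old B1 (adjusted p = 0.601). The median size of a member's difference was 0.09, against 0.15 over all genes. The largest was that of Vav3, -0.97 ± 0.48 (from -2.03 to 0.08, adjusted p = 0.68), and without old B1 replicate 3 it was -0.34. For Rasgrp3 the interval ran from -0.60 to 0.42, for Ptpn22 from -0.42 to 0.29 and for Syk from -0.26 to 0.19, so differences of the size seen between B1 and FO lie outside them. The count was also 0 under every one of 24 other settings. Among them, an adjusted p under 0.01 could not have given more. Leaving out an ABC or FO array left the differences between old and young B1 as they were.

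For the 25 members called in no comparison, which were thereby chosen for small or variable differences, the values of the chosen probe set are given as a description. They ran from -0.24 (Btk) to 0.37 (Hcls1) between ABC and FO, from -0.36 (Malt1) to 0.56 (Hcls1) between ABC and B1, and from -0.49 (Btk) to 0.27 (Sos2) between B1 and FO. Between old and young B1 they ran from -0.36 (Prkcd) to 0.27 (Dapp1). The outermost limits of their 95% intervals were -0.68 and 0.78 between ABC and FO, -0.92 and 0.96 between ABC and B1 and -0.94 and 0.80 between B1 and FO. Precision differed between members: the 0.56 of Hcls1 was not called, whereas the 0.31 of Ptprc between B1 and FO was.

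Members with several probe sets, 28 of 41, allowed a check of the choice of probe set. Fitted over all 34945 probe sets with 1 symbol, 9 of the 99 member probe sets were called between ABC and FO (9.09%, against 7.69% of all), 19 between ABC and B1 (19.2%, against 10.6%) and 33 between B1 and FO (33.3%, against 14.2%). Probe sets of the same gene are not independent, and these calls came from 6, 11 and 17 members. In 0 members were probe sets called in opposite directions within a comparison. A few members were called only through a probe set other than the one chosen: Nfatc1 between ABC and FO, then Grb2, Nfatc2 and Ppp3cb between ABC and B1, and Nck1, Vav1, Nfatc2 and Ppp3cb between B1 and FO.

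Nfatc2 showed the widest gap between probe sets. A dimmer probe set of the gene, with a mean of 8.34, read 7.61, 6.34 and 7.25 in old ABC, 6.82, 7.03 and 6.88 in old FO and 9.65, 9.99 and 9.38 in old B1, while the young B1 arrays read 10 in replicate 1 and 9.47 and 9.62 in the others. All B1 arrays lay more than a log2 step above all splenic arrays, a difference of 2.76 ± 0.29 between B1 and FO (limma adjusted p = 1.1e-04) and -2.61 ± 0.29 between ABC and B1 (adjusted p = 2.5e-04). The brighter Nfatc2 probe set gave -0.18 ± 0.22 and 0.28 ± 0.22 and was called in neither. Which transcripts of Nfatc2 each of them reads was not analysed here.

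For Nfatc1 all 5 probe sets were above 0 between B1 and FO, from 0.30 to 1.76, and 2 of them were called. For Ppp3cb a dimmer probe set gave -0.83 ± 0.13 between B1 and FO (adjusted p = 0.00171), where the chosen one gave -0.20 ± 0.09. The plot of single probe sets sets these beside Rasgrp3 and Sos1, whose probe sets went one way.

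**Figure D4:**
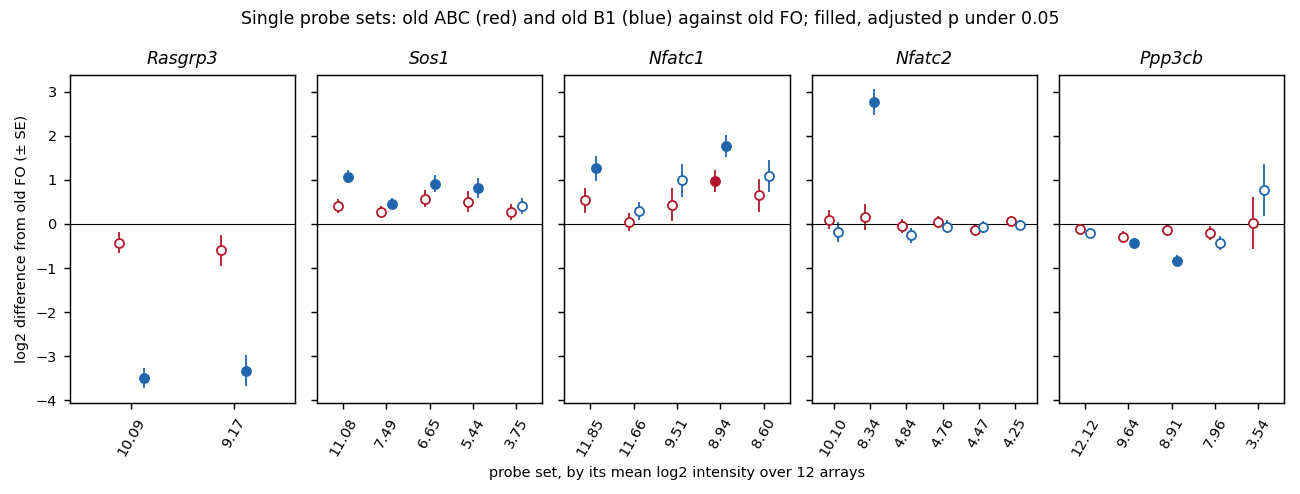
Log2 difference ± standard error (vertical axis) of each probe set of 5 members, named on the horizontal axis by its mean log2 intensity over 12 arrays, for old ABC (red) and old B1 (blue), each against old FO, with n = 3 arrays per group. Filled points have an adjusted p under 0.05. The Rasgrp3 probe sets lie at -3.49 and -3.33 for B1, while 1 of 6 Nfatc2 probe sets lies at 2.76 and the other 5 near 0.

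A list of 77 further genes of the receptor pathway (co-receptors, calcium channels, lipid kinases and phosphatases, mitogen-activated kinases, NF-kappaB and immediate targets), of which 65 were measured and 12 not analysed here, gave more calls than the members. Between ABC and FO 5 were higher and 6 lower (16.9% called, against 9.96% of all genes), between ABC and B1 16 were higher and 6 lower (33.8%, against 12.8%), and between B1 and FO 8 were higher and 16 lower (36.9%, against 16.4%). This list too was chosen with earlier results of these data known. Cr2, which encodes the complement co-receptor CD21, fell by 2.86 ± 0.40 in ABC relative to FO (limma adjusted p = 9.5e-04) and by 5.49 ± 0.40 in B1 relative to FO (adjusted p = 7.3e-06). Cd72, an inhibitory co-receptor, fell by 2.89 ± 0.16 in B1 relative to FO (adjusted p = 1.6e-06) and was higher in ABC than in B1 by 3.47 ± 0.16 (adjusted p = 9.5e-07). Pag1, a membrane adaptor that holds the kinase CSK, fell by 2.40 ± 0.22 in B1 relative to FO (adjusted p = 4.2e-05) and was higher in ABC than in B1 by 2.19 ± 0.22 (adjusted p = 1.2e-04). Stap1, an adaptor of Tec-family kinases, fell by 0.84 ± 0.13 in ABC (adjusted p = 0.00175) and by 1.40 ± 0.13 in B1 (adjusted p = 4.0e-05), each relative to FO. Cd2ap, a cytoskeletal adaptor, fell in ABC by 0.57 ± 0.08 relative to FO (adjusted p = 0.00102) and by 0.75 ± 0.08 relative to B1 (adjusted p = 1.8e-04). Pik3ap1, the BCAP adaptor of PI3 kinase, was higher in ABC than in B1 by 1.88 ± 0.22 (adjusted p = 3.5e-04). Fcgr2b, the inhibitory Fc receptor, was higher in ABC than in FO by 0.83 ± 0.13 (adjusted p = 0.00207). Between old and young B1 0 of the 65 were called, with 12 at an unadjusted p under 0.05.

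The arrays also held RNA of other cells, and several members have known roles there, SYK, LAT2, SHP-1, PTPN22 and DOK3 in myeloid cells and LAT2 and SYK in mast cells. The summed intensity of 7 measured macrophage markers of 8 listed ran from 12256 to 14292 in old ABC, from 855 to 2097 in old FO, from 9720 to 19052 in old B1 and from 11193 to 16778 in young B1. Of them 6 were higher in ABC than in FO and 7 higher in B1 than in FO. Ptpn22 and Syk were called higher in both of these comparisons, and Lat2 and Dok3 in ABC against FO. Between B1 and FO, however, Lat2 (-0.57 ± 0.13) and Ptpn6 (-0.53 ± 0.10) were called lower, and Dok3 was not called (0.22 ± 0.11). Ptpn6 gave 0.03 ± 0.10 between ABC and FO. Neutrophil markers (7 of 8 measured) summed to between 20025 and 32708 in old ABC, 430 and 9685 in old FO, 148 and 380 in old B1 and 284 and 1440 in young B1. Of them 4 were higher in ABC than in FO and 7 higher in ABC than in B1. Lat2 was called higher in both of these comparisons. Between ABC and B1 Ptpn6 was called higher too, and Syk, Ptpn22 and Dok3 were not called. Mast cell markers (6 of 6 measured) summed to between 185 and 719 in old ABC, 91 and 107 in old FO, 1921 and 4519 in old B1 and 2058 and 9669 in young B1, with 2 higher in ABC than in FO, 5 higher in B1 than in FO and 4 lower in ABC than in B1. Of 5 measured natural killer cell markers 2 were higher in ABC than in FO and 2 higher in ABC than in B1, and the same counts held for 5 dendritic cell markers. Most of these markers lay above the 25th percentile of intensity of every array, but some did not. Ncr1 (natural killer cells) lay under it on 9 arrays, Elane and Mpo (neutrophils) on 8 and 6, and Mcpt4 (mast cells) on 5. The part of such cells in the values of these members was not tested.

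Among the FO arrays replicate 3 was the highest for S100a8, a neutrophil granule gene (11.66 against 6.88 and 8.92), and for Csf1r, a macrophage receptor (8.44 against 7.01 and 7.01). Not every marker of these lists was highest there. The macrophage marker Cd68 was higher in replicate 2 (8.23 against 8.03), and the neutrophil marker Elane was lowest in replicate 3 (3.66 against 3.68 and 3.98). On old FO replicate 3 Ptpn22 read 10.81 against 10.14 and 10.47, and Syk read 12.39 against 12.14 and 12.38. Lat2 was lowest there, at 10.66 against 10.71 and 11.01. Dok3 (11.57 against 11.60 and 11.39) and Ptpn6 (12.39 against 12.41 and 12.35) lay between the other FO arrays. Of 8 listed B cell markers 7 were measured, and their summed intensity ran from 38142 to 43834 over the splenic arrays and from 27847 to 31898 over the B1 arrays. Of these 4 were lower in B1 than in FO. Among them Cd72 averaged 9.81 in B1 against 12.70 in FO on the log2 scale, and Cd72 is also on the list of further pathway genes. Cd37, a tetraspanin of B cells, read from 13.10 to 13.33 over all 12 arrays.

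Among the arrays, old B1 replicate 3 and old FO replicate 2 stood apart by a 75th percentile of intensity of 346 and 378, against 400.1 to 412 in the other 10. Old B1 replicate 3 was the lowest of all 12 arrays for 14 of 41 members (34.1%), against 28.0% of all genes. With both arrays left out, Fyn gave 1.31 between ABC and B1 and -1.48 between B1 and FO, and Vav3 gave -1.46 between B1 and FO, all still called. Ptprc was then no longer called between B1 and FO (-0.25, adjusted p = 0.0744).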

How the data were processed

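RNA of 12 samples of sorted mouse B cells was hybridised to 1 array each. The authors deposited intensity values without a log, between 3.00 and 22068. The submitters' processing notes name RMA and affy, with versions, order and settings not given in the sources used here. Array medians ran from 44.0 to 49.2, and the number of arrays limits the precision.

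Groups follow the labels. Each intensity was put on the log2 scale here, with no further normalization and no filter on dim probe sets. Probe sets were named from the platform annotation: 34945 had 1 gene symbol, 932 had several and 9160 had none, and the last 2 kinds were left out. By gene identifier 41 members were found in the RefSeq gene table. Genes were fitted with limma 3.58.1 (R 4.3.3) as 4 group means over the 12 arrays, with 8 residual and 2.37 prior degrees of freedom, and the procedure was tested on simulated data. Figures were drawn with matplotlib 3.10.9 (Python 3.11.15).

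The members and the lists of further pathway genes and cell type markers were chosen with earlier results of these data known. The text names every member called in a comparison, the best-known members whatever their result, and, of the further pathway genes, up to 4 called genes with the lowest p in each comparison. The replicate numbers of the titles were checked for pairing: deviations of samples with the same number correlated between -0.39 and 0.23, so the numbers were not taken to pair samples. The alternatives were array weights, fits of fewer arrays, a covariate, a replicate block, other normalizations, a filter, other probe set rules and a stricter threshold.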

Additional observations from a re-analysis of the deposited data

How the results depend on the processing

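The number of members called stayed within 1.5 times its value under 21 of 24 alternatives between ABC and FO, 23 of 24 between ABC and B1, 22 of 24 between B1 and FO and all 24 between old and young B1. Between ABC and FO (5 members) array weights gave 10 (21.8% of all genes, against 9.96%) and an adjusted p under 0.01 gave 3 (5.44%). Between ABC and B1 (8 members) the compared groups alone gave 4 (5.84% of all genes, against 12.8%), and between B1 and FO (13 members) they gave 5 (8.00%, against 16.4%) and an adjusted p under 0.01 gave 8 (9.38%). Leaving out 1 array at a time gave 3 to 6 members between ABC and FO, with 3 without old ABC replicate 2 (7.68% of all genes), then 7 to 10 between ABC and B1, 10 to 14 between B1 and FO and 0 in every case between old and young B1. In the same order, these fits called 6.96% to 15.6%, 8.84% to 15.0%, 11.5% to 19.5% and 0.0934% to 0.907% of all genes. With a replicate block the counts were 4, 8, 12 and 0 (8.48%, 11.2%, 14.1% and 0.176% of all genes). It ended the calls of Dok3 between ABC and FO (limma adjusted p = 0.0704) and Ptprc between B1 and FO (0.0509).

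For the further pathway genes, array weights gave 26, 34, 38 and 3 calls in the same order of comparisons, against 11, 22, 24 and 0. Over all genes array weights called 21.8%, 19.7%, 27.5% and 1.74%, against 9.96%, 12.8%, 16.4% and 0.291%. Between ABC and FO, leaving out both arrays with a low 75th percentile gave 23 (16.3% of all genes). That percentile as a covariate gave 20 (15.1%), and an adjusted p under 0.01 gave 7 (5.44%). Between ABC and B1 the compared groups alone gave 11 (5.84% of all genes) and an adjusted p under 0.01 gave 14 (7.04%). Between B1 and FO the compared groups alone gave 13 (8.00%). Leaving out 1 array gave 9 to 21 (21 without old B1 replicate 3), 15 to 31, 18 to 25 and 0 to 1 (1 without old ABC replicate 2 and 1 without old B1 replicate 2). The shares of all genes called by these fits are given above. The cause of these changes was not tested.

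Of 624 combinations of a called member difference with an alternative, 574 kept the call, 50 kept the direction and missed the threshold, and 0 turned direction. Of the member differences that were not called, 5 of 36 between ABC and FO, 6 of 33 between ABC and B1, 7 of 28 between B1 and FO and 0 of 41 between old and young B1 were called under at least 1 alternative. The matching shares over all genes were not worked out. Array weights, 1 of these alternatives, also called more of all genes, as given above. Over all genes the share of calls that were higher moved from 71.5% to 59.6% between ABC and FO with each array centred on its median. Between B1 and FO it moved from 51.2% to 63.7% with cyclic loess, where 8 of 14 members called were higher. With each array centred on its median the share between B1 and FO moved the other way, to 43.5%.

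The 3 arrays per group limit the precision, and no measure of signal over background was used here.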
